A study of Homo sapiens with 10 samples.

Results

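The genes described are those of the ESCRT machinery, the other vacuolar protein sorting (VPS) genes and the sorting nexins (SNX), measured on expression arrays of HEK-293 cells, a line derived from human embryonic kidney. They were chosen by symbol alone: every gene whose platform symbol begins with VPS, CHMP or SNX and then a digit, together with SNF8, TSG101, HGS, STAM and STAM2. This gave 78 of the 18404 genes on the arrays, 77 of them protein coding and 1, SNX29P2, a transcribed pseudogene. Each gene was read from a probe set with a single gene symbol, the one with the highest mean where there were several. CHMP3, CHMP4A, VPS16 and SNX15 were named only by probe sets shared with another gene and were not analysed here.

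The 10 arrays formed 5 groups of 2, which the labels call biological replicates. Every group was HEK-293 cells transfected with a small interfering RNA (siRNA) duplex in the RNAiMax reagent, with RNA taken 48 hours later, so no group was untransfected. The groups were a commercial negative-control siRNA at 10 nM, LOC440173 siRNA 1 at 10 nM, LOC440173 siRNA 2 at 10 nM, the same control siRNA at 100 nM, and a PAXIP1-AS1 siRNA at 100 nM. LOC440173 and PAXIP1-AS1 are long intergenic non-coding RNAs. The LOC440173 siRNAs were compared with the control at 10 nM and the PAXIP1-AS1 siRNA with the control at 100 nM. PAXIP1-AS1 was targeted with a single siRNA. The labels do not say whether replicates came from separate cultures, so the p-values measure the spread between these arrays, which may be technical.

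Membrane proteins tagged with ubiquitin are sorted on endosomes by the ESCRT complexes, which act in sequence. ESCRT-0, ESCRT-I and ESCRT-II bind the cargo, ESCRT-III polymerises from CHMP proteins and constricts the membrane neck, and the ATPases VPS4A and VPS4B take the ESCRT-III filaments apart so that the subunits can be used again. The same machinery cuts the bridge between dividing cells, seals the nuclear envelope and releases many enveloped viruses. Other VPS proteins form retromer and retriever, which return cargo to the cell surface or the Golgi, the tethers HOPS, CORVET and GARP, and the VPS13 lipid transfer proteins, while sorting nexins bind phosphoinositides through a PX domain and help to shape and sort endosomal membrane.

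The promoters of 4 genes that carry the main patterns are shown for orientation: VPS4A and VPS4B, the paralogous ATPases, and VPS25 and VPS36, partners in ESCRT-II. The sequences are the 250 bases before an annotated start of each gene in RefSeq (GRCh38.p14), read 5′ to 3′ on the strand of the gene. VPS36 had 2 such windows, and the first listed is the one shown and described. Capitals mark the GC box, GGGCGG or its reverse complement CCGCCC, searched on both strands.
VPS4A, chr16:69311100-69311349, plus strand: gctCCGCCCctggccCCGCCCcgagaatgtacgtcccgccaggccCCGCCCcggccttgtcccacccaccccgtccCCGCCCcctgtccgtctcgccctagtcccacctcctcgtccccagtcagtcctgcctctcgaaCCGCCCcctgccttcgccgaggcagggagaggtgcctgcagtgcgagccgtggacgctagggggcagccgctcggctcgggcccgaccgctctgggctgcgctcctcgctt
VPS4B, chr18:63422477-63422726, minus strand: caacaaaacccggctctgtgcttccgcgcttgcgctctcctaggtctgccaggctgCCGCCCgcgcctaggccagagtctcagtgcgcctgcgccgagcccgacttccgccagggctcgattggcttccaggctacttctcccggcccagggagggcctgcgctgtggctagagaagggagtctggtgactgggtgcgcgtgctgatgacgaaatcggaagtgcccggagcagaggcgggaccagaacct
VPS25, chr17:42773199-42773448, plus strand: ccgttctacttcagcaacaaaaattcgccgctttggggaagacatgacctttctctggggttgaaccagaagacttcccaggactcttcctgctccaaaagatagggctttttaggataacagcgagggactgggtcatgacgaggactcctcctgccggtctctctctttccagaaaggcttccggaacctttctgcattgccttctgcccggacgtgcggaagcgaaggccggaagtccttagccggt
VPS36, chr13:52450635-52450884, minus strand: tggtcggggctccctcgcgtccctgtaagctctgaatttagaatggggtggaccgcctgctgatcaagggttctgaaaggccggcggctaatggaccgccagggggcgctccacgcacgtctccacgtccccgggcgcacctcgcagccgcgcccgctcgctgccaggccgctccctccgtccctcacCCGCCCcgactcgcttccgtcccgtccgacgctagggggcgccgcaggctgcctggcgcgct

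The VPS4A window held 5 GC boxes and 74.8% G and C. Those of VPS4B and VPS36 held 1 GC box each, at 66.4% and 71.6% G and C, and the VPS25 window held 0, at 54% G and C. Of the 78 genes 57 were matched in the promoter table by symbol, with 72 windows. A GC box was found in 58.3% of these windows and in 42.6% of all 35116 windows of that length. The sequence CCGGAAGT, the motif bound by ETS factors, was found on either strand in 12.5% of the members' windows, VPS25 among them, and in 3.42% of all windows. CCAAT was found in 23.6% of the members' windows and 32% of all, and CACGTG in 8.33% and 6.34%. No binding or methylation was measured in these cells, so these matches describe the letters only.

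Values are log2 expression from the robust multi-array average (RMA), and a difference of 1 is a doubling. They compare 1 gene between samples and not 1 gene with another. The arrays were alike in scale, with medians from 7.06 to 7.12 and replicate correlations from 0.994 to 0.997 across all probe sets, which are not independent. The target RNA LOC440173, listed as LINC02893, read 8.48 and 8.60 with the control at 10 nM, 7.72 and 7.43 with siRNA 1, and 6.71 and 6.59 with siRNA 2. It lay between 8.50 and 8.60 on the 4 arrays of the control at 100 nM and the PAXIP1-AS1 siRNA. LINC02893 fell by 0.96 with siRNA 1 (adjusted p = 0.000305) and fell by 1.89 with siRNA 2 (adjusted p = 1.38e-05) in the limma fit. PAXIP1-AS1 had no listed probe set, so its own silencing was not analysed here. All 8 listed HEK-293 genes lay above 5.99, the lower quartile of gene means, on every array, a rough mark since probe sets differ in sensitivity. NEFM, a neurofilament gene among them, moved between groups, from 9.40 and 9.52 with siRNA 1 to 11.3 and 11.4 with siRNA 2, and its part in the results was not tested. Of 17 measured markers of other cell types 10 lay below that mark on every array, among them PTPRC of blood cells, DCN of fibroblasts and SLC12A1 of kidney tubule. On every array 5 lay above it: COL1A1 and COL3A1 of fibroblasts, LRP2 and AQP2 of kidney tubule and KRT14 of keratinocytes.

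Of the 78 genes 66 had a mean over the arrays of at least 7.66, the median over genes. SNX31, SNX20 and SNX32 lay below the lower quartile, and none of these 3 was called in any comparison. A gene is called here, and said to rise or fall, when its two-sided limma test over all 10 arrays gives a Benjamini-Hochberg adjusted p under 0.05 across the 18404 genes. In every called case below the arrays of the compared groups did not overlap.

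LOC440173 siRNA 1 changed 24 of the 78 genes, 16 upward and 8 downward, or 30.8% against a background of 28.8% of all genes (12.1% upward and 16.7% downward). LOC440173 siRNA 2 changed 38, 16 upward and 22 downward, or 48.7% against a background of 30.0% (12.5% and 17.4%). The siRNAs share their control arrays, so these counts are not independent of each other. The PAXIP1-AS1 siRNA changed 8, 3 upward and 5 downward, or 10.3% against a background of 4.62% (2.86% and 1.76%). Over all genes the share of the members was thus close to the background with siRNA 1 and above it with siRNA 2 and the PAXIP1-AS1 siRNA. Most members are genes of high signal, however, and the share called at each signal level was not worked out in this fit. A repeat without genes below the median level also changed the estimate of spread and the adjustment. When genes below the median level were left out, 50% of the remaining 66 members were called with siRNA 1 against 55.8% of genes, 62.1% against 58% with siRNA 2, and 31.8% against 20.4% with the PAXIP1-AS1 siRNA. The median change of the members was 0.06, -0.02 and -0.03 in the 3 comparisons, and that of all genes was 0.05, 0.01 and -0.01. Of the 78 members 55, 38 and 36 had a positive change, as did 10954, 9682 and 8440 of the 18404 genes. Under another quantile normalization the members' median was 0.13 with siRNA 1 and that of all genes 0.03, while with siRNA 2 both were 0.02. With each array shifted to the same median they were 0.13 and 0.12 with siRNA 1, and 0.07 and 0.10 with siRNA 2. In size the members moved by a median of 0.17, 0.22 and 0.11 on the log2 scale, and all genes by 0.16, 0.14 and 0.086.

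**Figure D1:**
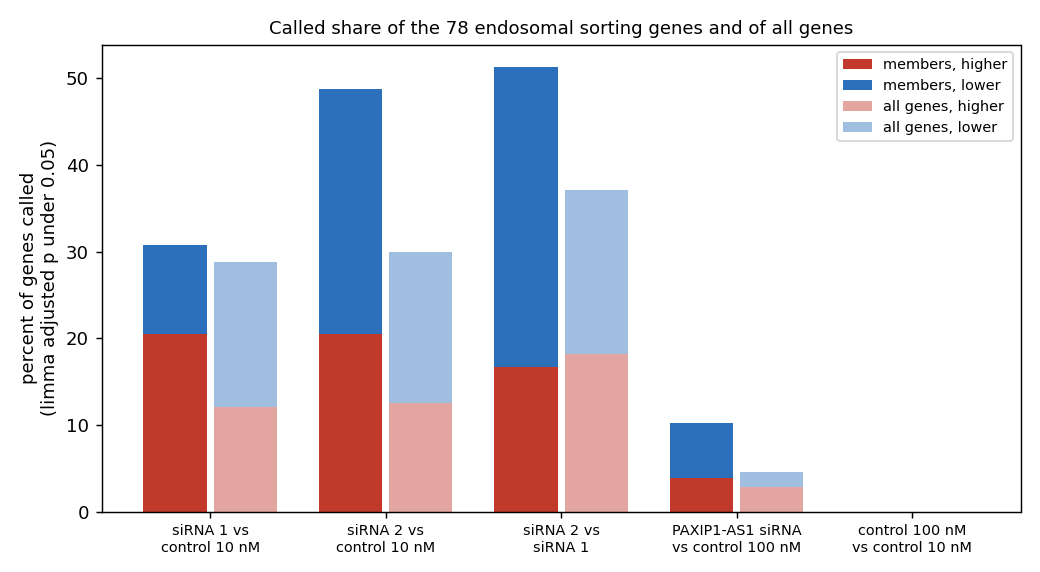
Percent of genes called (y axis, limma adjusted p under 0.05) in each of the 5 comparisons (x axis), for the 78 endosomal sorting genes (dark bars) and all 18404 genes (pale bars), split into higher and lower. With siRNA 2 the members reach 48.7% and all genes 30.0%, and between the control doses both are at 0.

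Dose of the control siRNA made no called difference: 0 of the 78 genes and 0 of 18404 (0%) passed between 100 nM and 10 nM in the limma fit. At an unadjusted p under 0.05 there was 1 member, VPS29 (-0.15), and 692 of all genes. The median absolute difference between the control doses was 0.039 for the members and 0.053 for all genes. Each of the 10 arrays was left out in turn, which also changed the spread pooled over groups. With siRNA 1, 14 of 24 calls held every time, with siRNA 2, 24 of 38, and with the PAXIP1-AS1 siRNA 1 of 8, VPS4A. How many calls of all genes held every time was not counted. When the fit held the compared groups alone, 15, 19 and 1 members were called. These were 19.2%, 24.4% and 1.28% of the members, beside 19%, 15.1% and 0.983% of all genes. The calls lost in that fit were those of VPS11, VPS13D, VPS25, VPS26B, VPS28, VPS33A, VPS39, VPS45 and VPS72 with siRNA 1. With siRNA 2 they were those of CHMP1A, CHMP1B, CHMP2B, CHMP5, CHMP7, SNX10, SNX27, STAM, VPS13A, VPS13B, VPS13C, VPS18, VPS26B, VPS33B, VPS37C, VPS39, VPS51, VPS52 and VPS53. Weighting the arrays by quality ended the calls of VPS13D with siRNA 1 and of CHMP2B, CHMP5, SNX10, STAM, VPS13C and VPS33B with siRNA 2.

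VPS4A, 1 of the 2 ATPases that disassemble ESCRT-III, was the only member that rose with all 3 target siRNAs. It was also the marker given with this gene set, and how many of all genes rose with all 3 was not counted. VPS4A read 8.71 and 8.76 with the control at 10 nM and 8.74 and 8.76 with the control at 100 nM. With LOC440173 siRNA 1 it read 9.48 and 9.54, with siRNA 2 9.50 and 9.61, and with the PAXIP1-AS1 siRNA 9.69 and 9.73. All 6 target arrays thus lay above all 4 control arrays, with no value in between. The rise was 0.78 ± 0.057 (SE) with siRNA 1, or 1.71-fold (adjusted p = 6.16e-05, limma, n = 2 arrays a group). It was 0.82 with siRNA 2, or 1.77-fold (adjusted p = 4.11e-05), and 0.96 with the PAXIP1-AS1 siRNA, or 1.95-fold (adjusted p = 0.000274). In that last comparison VPS4A ranked 20 of 18404 genes by its rise, and it ranked 56 with siRNA 1 and 104 with siRNA 2. The LOC440173 siRNAs did not differ measurably in it: siRNA 2 minus siRNA 1 was 0.05 (95% interval -0.09 to 0.18, adjusted p = 0.577).

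VPS4B, the paralog that works in the same hexameric ATPase, rose with siRNA 1 and with the PAXIP1-AS1 siRNA. It read 7.96 and 8.14 with the control at 10 nM, 9.03 and 8.94 with siRNA 1, and 7.96 and 8.07 with siRNA 2. With the control at 100 nM it read 7.98 and 8.08, and with the PAXIP1-AS1 siRNA 8.51 and 8.69. The siRNA 2 arrays lay among the controls, while those of siRNA 1 and of the PAXIP1-AS1 siRNA lay above every control. The change was 0.93 ± 0.087 (SE) with siRNA 1, or 1.91-fold (adjusted p = 0.000184, limma), the largest rise of any member there and rank 25 of all genes. With siRNA 2 it was -0.04 (95% interval -0.24 to 0.17, adjusted p = 0.822), and its sign turned to 0.05 under another quantile normalization. The direct difference, siRNA 2 minus siRNA 1, was -0.97 (adjusted p = 7.37e-05). VPS4B rose by 0.57, or 1.49-fold, with the PAXIP1-AS1 siRNA (adjusted p = 0.0128). That call was lost without any single array of its own 2 groups (adjusted p from 0.0502 to 0.109) and when the fit held these groups alone (0.0569).

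**Figure D2:**
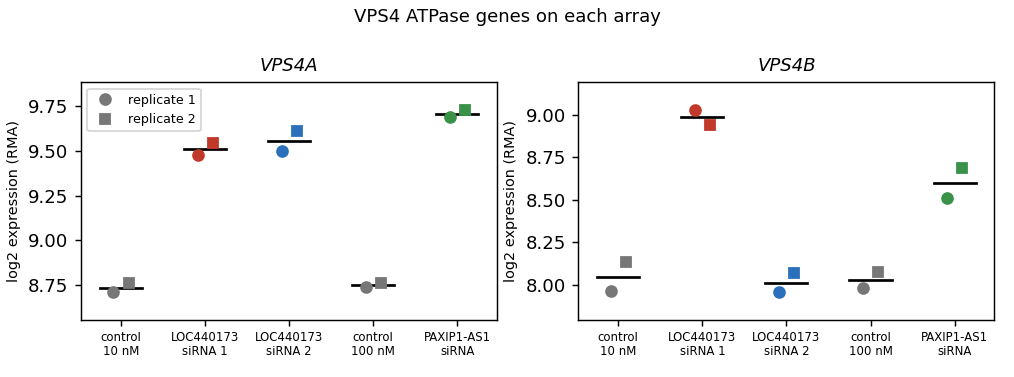
Log2 expression (y axis, RMA) of VPS4A and VPS4B on each of the 10 arrays, by group (x axis), with circles for replicate 1, squares for replicate 2 and a bar at the mean of each group. VPS4A lies at 9.48 to 9.73 on the 6 target arrays and at 8.71 to 8.76 on the 4 control arrays, while VPS4B with siRNA 2 (7.96 and 8.07) lies at the control level.

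ESCRT-0, which clusters ubiquitinated cargo, had 1 of its 3 genes called with each LOC440173 siRNA and 0 with the PAXIP1-AS1 siRNA. A share of 33.3% stands beside 28.8% of all genes with siRNA 1 and 30.0% with siRNA 2. STAM2 read 9.37 and 9.60 with the control at 10 nM and 10.00 and 9.94 with siRNA 1, a rise of 0.49 (adjusted p = 0.0036, limma). With siRNA 2 STAM2 stood 0.24 above the control without a call (adjusted p = 0.0676). Its paralog STAM rose by 0.21 with siRNA 2 (adjusted p = 0.024) and stood at 0.08 with siRNA 1 (adjusted p = 0.357). HGS, the subunit that binds the endosomal lipid, was called against neither control (0.22 and -0.20, adjusted p = 0.071 and 0.0892) but differed between the LOC440173 siRNAs by -0.42 (adjusted p = 0.00317). The STAM call was lost without control 10 nM replicate 1 or without either siRNA 2 array (adjusted p from 0.0594 to 0.11).

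ESCRT-I links ESCRT-0 to ESCRT-II, and it had 2 of 6 genes called with siRNA 1, both upward, 1 with siRNA 2, downward, and 0 with the PAXIP1-AS1 siRNA. The shares with siRNA 1 and siRNA 2 were 33.3% and 16.7%, beside 28.8% and 30.0% of all genes. VPS37B read 8.28 and 8.35 with the control at 10 nM, 8.80 and 8.73 with siRNA 1, and 8.24 and 8.29 with siRNA 2. It rose by 0.45 with siRNA 1 (adjusted p = 0.00392, limma) and was -0.05 with siRNA 2 (adjusted p = 0.732), and the direct difference was -0.50 (adjusted p = 0.0015). VPS37B stood at -0.33 with the PAXIP1-AS1 siRNA, without a call (adjusted p = 0.0591). VPS28, another core subunit, rose by 0.26 with siRNA 1 (adjusted p = 0.00762) and was 0.00 with siRNA 2. VPS37C fell by 0.37 with siRNA 2 (adjusted p = 0.00938) and was -0.02 with siRNA 1. TSG101, the ubiquitin-binding subunit that viral late domains recruit, was called nowhere and spanned 10.34 to 10.56 over the 10 arrays. The VPS28 call was lost without siRNA 1 replicate 2 (adjusted p = 0.0596), and the VPS37C call without control 10 nM replicate 1 (adjusted p = 0.0506).

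ESCRT-II bridges ESCRT-I and ESCRT-III, and 2 of its 3 subunits moved in opposite directions with the LOC440173 siRNAs. With each of these siRNAs 66.7% of the ESCRT-II genes were called, beside 28.8% (siRNA 1) and 30.0% (siRNA 2) of all genes. VPS25 read 11.93 and 11.90 with the control at 10 nM, 12.15 and 12.17 with siRNA 1, and 11.09 and 11.15 with siRNA 2. VPS36 read 9.34 and 9.51 with that control, 8.83 and 8.85 with siRNA 1, and 9.96 and 10.07 with siRNA 2. In both genes the control arrays lay between those of the siRNAs, with VPS25 high where VPS36 was low. VPS25 rose by 0.24 with siRNA 1 (adjusted p = 0.00798, limma) and fell by 0.80 with siRNA 2, to 57.6% of the control (adjusted p = 2.47e-05). VPS36 fell by 0.59 with siRNA 1 (adjusted p = 0.0012) and rose by 0.59 with siRNA 2 (adjusted p = 0.00101). Between siRNA 2 and siRNA 1 VPS25 differed by -1.04 (adjusted p = 4.23e-06) and VPS36 by 1.17 (adjusted p = 1.96e-05), the largest positive difference of any member. SNF8, the remaining subunit, was 0.06 and 0.01 (adjusted p = 0.478 and 0.901). VPS25 (-0.11), VPS36 (0.20) and SNF8 (-0.06) were not called with the PAXIP1-AS1 siRNA. The siRNA 1 call of VPS25 was lost without siRNA 1 replicate 2 (adjusted p = 0.0534) and when the fit held the compared groups alone (0.0602).

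ESCRT-III, the CHMP filament, had 2 of 9 genes called with siRNA 1, 6 with siRNA 2 and 2 with the PAXIP1-AS1 siRNA, beside backgrounds of 28.8%, 30.0% and 4.62% of all genes. With siRNA 1 that was 22.2% of the CHMP genes, below the background. CHMP4C, which delays the last cut between daughter cells, read 7.49 and 7.42 with the control at 10 nM, 7.78 and 7.67 with siRNA 1, and 6.42 and 6.91 with siRNA 2. Both siRNA 2 arrays were the lowest of the 10, and they lay further apart from each other than any other pair. CHMP4C fell by 0.79 with siRNA 2 (adjusted p = 0.00314, limma), to 57.9% of the control, and was 0.27 with siRNA 1 (adjusted p = 0.174). CHMP4B, the main filament subunit, was called nowhere and spanned 9.79 to 9.97. CHMP1B read 8.24 and 8.32 with the control at 10 nM, 8.73 and 8.76 with siRNA 1, and 8.03 and 8.11 with siRNA 2. It rose by 0.47 with siRNA 1 (adjusted p = 0.000512), fell by 0.21 with siRNA 2 (adjusted p = 0.0197), and differed by -0.68 between them (adjusted p = 3.88e-05). CHMP7, which starts the filament at the nuclear envelope, fell with both, by 0.33 (adjusted p = 0.0042) and by 0.28 (adjusted p = 0.00793). CHMP2B and CHMP5 rose by 0.34 and 0.27 with siRNA 2 (both adjusted p = 0.0361), and CHMP1A fell by 0.25 (adjusted p = 0.0185). With the PAXIP1-AS1 siRNA CHMP1A fell by 0.34 (adjusted p = 0.0242) and CHMP2A, a late filament subunit, by 0.30 (adjusted p = 0.0196). CHMP2A had read 11.62 and 11.64 with the control at 100 nM and read 11.34 and 11.31 with the siRNA. CHMP6, the subunit that ESCRT-II contacts, was not called (-0.19, -0.10 and -0.34).

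Several of these ESCRT-III calls were lost when an array was left out, in some cases an array of a group outside the comparison. With siRNA 2, CHMP1A was lost without control 10 nM replicate 1 or siRNA 2 replicate 2 (adjusted p = 0.0882 and 0.106 at the extremes), CHMP1B without control 10 nM replicate 2 or siRNA 2 replicate 1 (0.0898 to 0.105) and CHMP7 without siRNA 2 replicate 2 (0.0519). CHMP1A and CHMP1B were also lost there under both other scalings of the arrays. CHMP2B was lost without any of 7 arrays, which are all but those of the control at 100 nM and siRNA 2 replicate 1 (0.0517 to 0.186), and CHMP5 without any of 8, all but control 10 nM replicate 2 and siRNA 2 replicate 1 (0.0548 to 0.181). With the PAXIP1-AS1 siRNA, CHMP2A was lost without any array of its own 2 groups (0.115 to 0.152), and CHMP1A without any of those or either siRNA 1 array (0.0501 to 0.151).

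**Figure D3:**
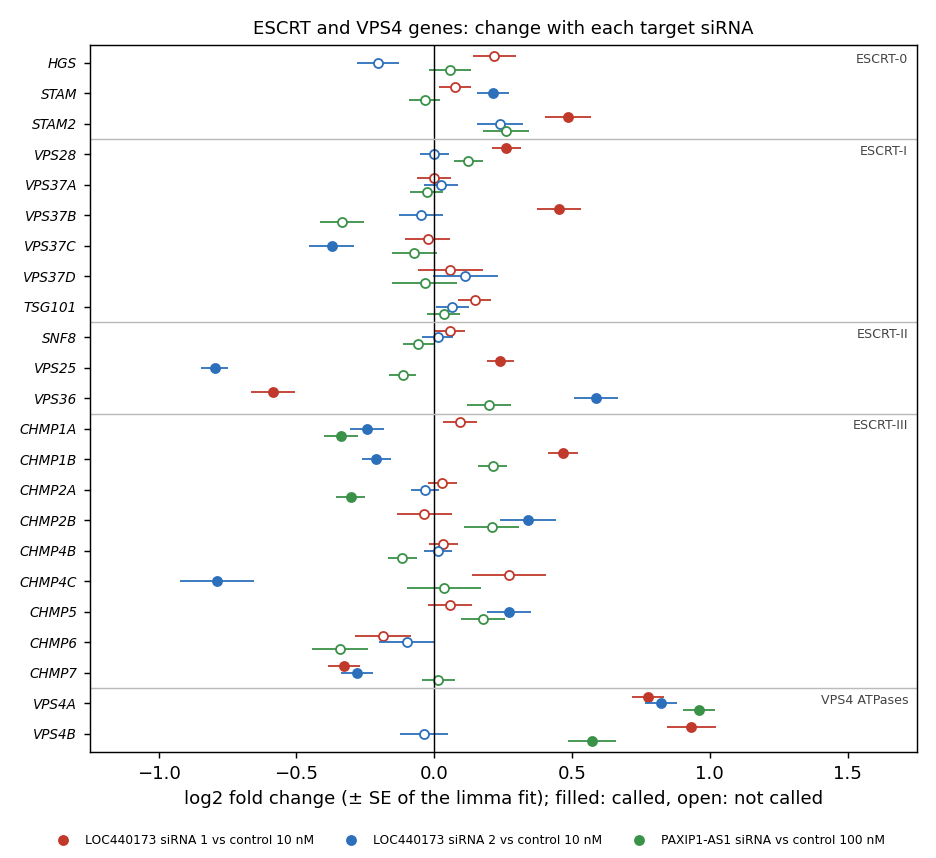
Log2 fold change (x axis) of each ESCRT-0, ESCRT-I, ESCRT-II, ESCRT-III and VPS4 gene (y axis) with LOC440173 siRNA 1 (red), siRNA 2 (blue) and the PAXIP1-AS1 siRNA (green) against the control at the same dose, with SE bars of the limma fit and filled points for called genes. VPS4A has filled points for all 3 siRNAs at 0.78, 0.82 and 0.96, and VPS25 and VPS36 have red and blue points on opposite sides of 0.

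Retromer and retriever, which rescue cargo from degradation, had 3 of their 6 VPS genes called with each LOC440173 siRNA and 0 with the PAXIP1-AS1 siRNA. Of all genes, 28.8% were called with siRNA 1, 30.0% with siRNA 2 and 4.62% with the PAXIP1-AS1 siRNA. VPS29, the subunit both complexes contain, read 9.80 and 9.92 with the control at 10 nM, 9.45 and 9.34 with siRNA 1, and 9.50 and 9.53 with siRNA 2. It fell by 0.46 (adjusted p = 0.00122, limma) and by 0.34 (adjusted p = 0.00453). On the arrays of the control at 100 nM VPS29 read 9.69 and 9.73, below the control at 10 nM and above both siRNAs. VPS26C, the retriever arrestin-like subunit, read 10.75 and 10.83 with the control at 10 nM, 11.15 and 11.15 with siRNA 1, and 11.16 and 11.25 with siRNA 2. It rose by 0.36 (adjusted p = 0.00224) and by 0.41 (adjusted p = 0.00103). VPS26B, a retromer arrestin-like subunit, fell by 0.19 with siRNA 1 (adjusted p = 0.0243) and rose by 0.24 with siRNA 2 (adjusted p = 0.00916), a direct difference of 0.43 (adjusted p = 0.000314). VPS35, the retromer scaffold, was called nowhere, at -0.03 and -0.20 (adjusted p = 0.74 and 0.0528), and neither were VPS26A and VPS35L. With siRNA 1, VPS26B was no longer called when any of the 4 arrays compared was left out (adjusted p from 0.0582 to 0.142) and under both other scalings.

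HOPS and CORVET tether late and early endosomes, and the 7 genes listed with them include VPS33B, which works with VIPAS39 in a separate complex. Of the 7, 3 rose with siRNA 1 and 3 fell with siRNA 2, or 42.9% each, beside a background of 12.1% of all genes higher with siRNA 1 and 17.4% lower with siRNA 2. VPS39, a subunit of HOPS, read 9.60 and 9.57 with the control at 10 nM, 9.88 and 9.80 with siRNA 1, and 9.35 and 9.35 with siRNA 2. It rose by 0.26 (adjusted p = 0.00639, limma), fell by 0.23 (adjusted p = 0.00916), and differed between the siRNAs by -0.49 (adjusted p = 0.000144). VPS11 and VPS33A, core subunits, rose by 0.21 and 0.23 with siRNA 1 (adjusted p = 0.0161 and 0.034) and were -0.15 and -0.03 with siRNA 2. VPS18, another core subunit, fell by 0.35 with siRNA 2 (adjusted p = 0.00452). VPS33B, which is not a subunit of either tether, fell by 0.24 (adjusted p = 0.0313). VPS8 and VPS41, specific to CORVET and HOPS, were called nowhere. In siRNA 1, VPS39 was lost without its replicate 1 (adjusted p = 0.0538), VPS11 without control 10 nM replicate 1 or either siRNA 1 array (0.0599 to 0.0833), and VPS33A without those or either PAXIP1-AS1 array (0.0591 to 0.127). In siRNA 2, VPS33B was lost without control 10 nM replicate 2, siRNA 2 replicate 1 or either PAXIP1-AS1 array (0.053 to 0.154) and under both other scalings, and VPS39 with each array shifted to the same median.

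GARP and its endosomal relative EARP capture vesicles at the Golgi and at recycling endosomes. Of their 5 genes 4 fell with siRNA 2, 1 with the PAXIP1-AS1 siRNA and 0 with siRNA 1. Beside these, 17.4%, 1.76% and 16.7% of all genes were lower in the same comparisons. VPS54, the subunit found in GARP and not in EARP, read 7.90 and 8.22 with the control at 10 nM and 7.41 and 7.56 with siRNA 2. It fell by 0.58 (adjusted p = 0.00448, limma) and was 0.05 with siRNA 1 (adjusted p = 0.775), a direct difference of -0.62 (adjusted p = 0.0022). The shared subunits VPS51, VPS52 and VPS53 fell by 0.24, 0.22 and 0.22 with siRNA 2 (adjusted p = 0.0141, 0.00995 and 0.00683), while VPS50, the EARP subunit, was 0.14 (adjusted p = 0.393). VPS52 also fell by 0.21 with the PAXIP1-AS1 siRNA (adjusted p = 0.0497), a call lost without any of the 10 arrays (0.0544 to 0.251). With siRNA 2, VPS51 was lost without control 10 nM replicate 1 or siRNA 2 replicate 1 (0.07 and 0.0704), VPS52 without siRNA 2 replicate 2 (0.0506), and all 3 with each array shifted to the same median. With the mean of its 2 probe sets VPS52 was called in neither comparison (adjusted p = 0.108 and 0.7).

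The VPS13 proteins move lipids between membranes in contact, and 3 of the 4 rose with siRNA 2, beside 12.5% of all genes. VPS13C, found at late endosomes and lipid droplets, read 8.79 and 8.98 with the control at 10 nM, 8.38 and 8.38 with siRNA 1, and 9.14 and 9.27 with siRNA 2. It fell by 0.51 with siRNA 1 (adjusted p = 0.00326, limma), rose by 0.32 with siRNA 2 (adjusted p = 0.0247), and differed by 0.82 between them (adjusted p = 0.000156). VPS13A and VPS13B rose by 0.33 and 0.29 with siRNA 2 (adjusted p = 0.0226 and 0.00555) and were -0.09 and 0.00 with siRNA 1. VPS13D rose by 0.19 with siRNA 1 (adjusted p = 0.0439) and was -0.04 with siRNA 2. The siRNA 2 calls of VPS13A and VPS13C were lost without control 10 nM replicate 1 or siRNA 2 replicate 2 (adjusted p from 0.111 to 0.125 and from 0.12 to 0.13), and that of VPS13D in siRNA 1 without any of the 8 arrays outside the PAXIP1-AS1 group (0.0592 to 0.198). Among the other VPS genes, VPS72, a chromatin remodelling subunit that shares the name but not the pathway, rose by 0.23 with siRNA 1 (adjusted p = 0.00696). VPS45, a partner of syntaxins, fell there by 0.18 (adjusted p = 0.0329), a call lost without control 10 nM replicate 2, either siRNA 1 array or either PAXIP1-AS1 array (0.0585 to 0.146).

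The SNX-BAR sorting nexins add a membrane-bending domain, and of the 12 measured 4 were called with siRNA 1, 5 with siRNA 2 and 0 with the PAXIP1-AS1 siRNA. These are 33.3%, 41.7% and 0%, beside 28.8%, 30.0% and 4.62% of all genes. SNX30 read 8.89 and 9.02 with the control at 10 nM, 8.18 and 8.19 with siRNA 1, and 8.22 and 8.24 with siRNA 2. It fell by 0.77 with siRNA 1, to 58.4% of the control (adjusted p = 7.96e-05, limma), and by 0.73 with siRNA 2, to 60.3% (adjusted p = 9.22e-05). The direct difference was 0.04 (95% interval -0.10 to 0.18, adjusted p = 0.621). SNX30 also read lower with the PAXIP1-AS1 siRNA, at 8.61 and 8.58 against 8.90 and 8.80, without a call (-0.25, adjusted p = 0.0576). SNX33, which binds dynamin and actin regulators, fell with both LOC440173 siRNAs, by 0.35 and by 0.55 (adjusted p = 0.00303 and 0.000272). SNX9, its relative in clathrin-mediated uptake, rose with both, by 0.26 and 0.30 (adjusted p = 0.00559 and 0.00218).

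The SNX-BAR partners of retromer were called in different directions. SNX6 read 10.37 and 10.52 with the control at 10 nM, 10.23 and 10.24 with siRNA 1, and 11.08 and 11.21 with siRNA 2. It rose by 0.70 with siRNA 2, or 1.63-fold (adjusted p = 0.000242, limma), and was -0.21 with siRNA 1 (adjusted p = 0.0613). The difference between the siRNAs was 0.91 (adjusted p = 3.71e-05). SNX5, which pairs with the same SNX1 and SNX2 subunits, read 11.14 and 11.22 with the control and 10.70 and 10.79 with siRNA 2, a fall by 0.43 (adjusted p = 0.000762). SNX5 was 0.13 with siRNA 1 (adjusted p = 0.113), and the difference between the siRNAs was -0.57 (adjusted p = 0.000118). SNX1 rose by 0.35 with siRNA 1 (adjusted p = 0.0065), a call lost without siRNA 1 replicate 2 (0.0513), and was 0.12 with siRNA 2. SNX2 was 0.13 and -0.07, called against neither control. SNX4, SNX7, SNX8, SNX18 and SNX32 were called in none of the 5 comparisons.

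The largest change of any member against a control was that of SNX17, a FERM-domain nexin that recycles LRP1 and integrins. It read 10.32 and 10.25 with the control at 10 nM, 10.27 and 10.33 with siRNA 1, and 9.14 and 9.21 with siRNA 2. It read 10.27 and 10.28 with the control at 100 nM and 10.01 and 10.00 with the PAXIP1-AS1 siRNA. The siRNA 2 arrays stood apart from all others by more than the range of the remaining 8. SNX17 fell by 1.12 ± 0.053 (SE) with siRNA 2, to 46.1% of the control (adjusted p = 9.59e-06, limma), and was 0.01 with siRNA 1 (95% interval -0.11 to 0.14, adjusted p = 0.872). The direct difference was -1.13 (adjusted p = 4.13e-06). It was the only member called against a control when a change of at least 1.5-fold was asked for. With the PAXIP1-AS1 siRNA SNX17 fell by 0.27 (adjusted p = 0.0319), a call lost without any array of its own 2 groups or either siRNA 1 array (0.0604 to 0.203) and with each array shifted to the same median. SNX27, the FERM nexin that hands PDZ-ligand cargo to retromer, rose by 0.19 with siRNA 2 (adjusted p = 0.016), a call lost without control 10 nM replicate 1 or siRNA 2 replicate 1 (0.0588 and 0.075 at the extremes).

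**Figure D4:**
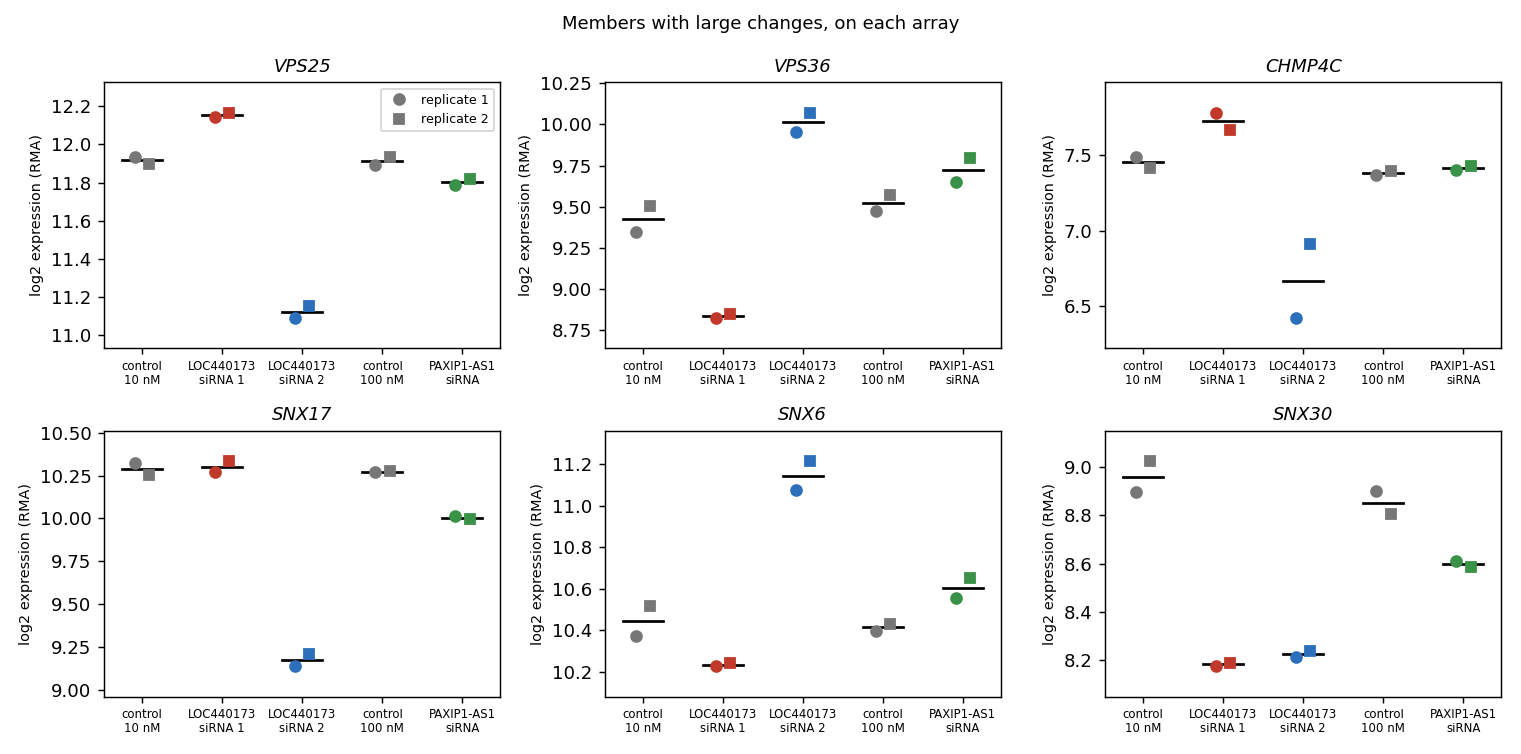
Log2 expression (y axis, RMA, each panel with its own range) of VPS25, VPS36, CHMP4C, SNX17, SNX6 and SNX30 on each array, by group (x axis), with circles for replicate 1, squares for replicate 2 and a bar at the group mean. SNX17 drops to 9.14 and 9.21 with siRNA 2 alone, SNX30 drops with both LOC440173 siRNAs (8.18 to 8.24), and VPS25 and VPS36 mirror each other.

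The SNX-RGS family sits on membranes of the endoplasmic reticulum and endosomes, and its member SNX19 lacks the RGS domain that SNX13, SNX14 and SNX25 carry. Of these 4 genes 3 rose with siRNA 2, and 0 were called with siRNA 1 or the PAXIP1-AS1 siRNA. Beside this, 12.5% of all genes were higher with siRNA 2 than with the control at 10 nM. SNX14 stood at -0.28 with siRNA 1 (adjusted p = 0.0778) and passed when control 10 nM replicate 1 (0.0272) or either siRNA 2 array (0.045) was left out. SNX13 read 9.11 and 9.27 with the control at 10 nM and 9.77 and 9.91 with siRNA 2, a rise of 0.65 (adjusted p = 0.00112, limma). SNX25 read 9.38 and 9.56 with that control and 10.07 and 10.10 with siRNA 2, a rise of 0.62 (adjusted p = 0.000517). SNX19 rose by 0.54 (adjusted p = 0.00261) from a low level of 6.39 and 6.34. All 4 were higher with siRNA 2 than with siRNA 1: SNX25 by 0.76 (adjusted p = 0.000106), SNX14 by 0.53 (0.00436), SNX13 by 0.45 (0.00512) and SNX19 by 0.42 (0.00688). In that comparison 18.2% of all genes were higher with siRNA 2. The SNX19 difference was lost without siRNA 1 replicate 2 (adjusted p = 0.0517).

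Among the 10 other nexins, 1 was called with siRNA 1, 4 with siRNA 2 and 2 with the PAXIP1-AS1 siRNA. Their shares of 10.0%, 40.0% and 20.0% stand beside 28.8%, 30.0% and 4.62% of all genes. SNX11 and SNX12, small PX-domain proteins, fell with siRNA 2 by 0.38 and by 0.40 (adjusted p = 0.00128 and 0.000921, limma). SNX10, a gene mutated in a form of osteopetrosis, read 8.23 and 8.40 with the control at 10 nM and 8.05 and 8.08 with siRNA 2. It read 8.22 and 8.29 with the control at 100 nM and 8.64 and 8.77 with the PAXIP1-AS1 siRNA. It fell by 0.25 with siRNA 2 (adjusted p = 0.0354) and rose by 0.45 with the PAXIP1-AS1 siRNA (adjusted p = 0.0167). The rise was lost without any array of its own 2 groups (0.0661 to 0.138). The fall was lost without control 10 nM replicate 2, either siRNA 1 array, either siRNA 2 array or either array of the control at 100 nM (0.0513 to 0.167) and under both other scalings. SNX29 rose by 0.29 with siRNA 1 (adjusted p = 0.0179) and fell by 0.45 with siRNA 2 (0.00207) and by 0.35 with the PAXIP1-AS1 siRNA (0.0356). The rise was lost without control 10 nM replicate 1 or either siRNA 1 array (0.067 to 0.0892), and the fall with the PAXIP1-AS1 siRNA without any of the 8 arrays outside the control at 10 nM (0.0568 to 0.216), with the mean of both probe sets and with each array shifted to the same median. SNX29 values are uncertain, since its other probe set did not show the siRNA 2 fall (0.05) and SNX29P2 is a pseudogene copy whose signal cannot be told apart where the sequence is shared. SNX29P2 itself was called nowhere. SNX3, a nexin that works with retromer, was called nowhere and spanned 10.19 to 10.41.

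**Figure D5:**
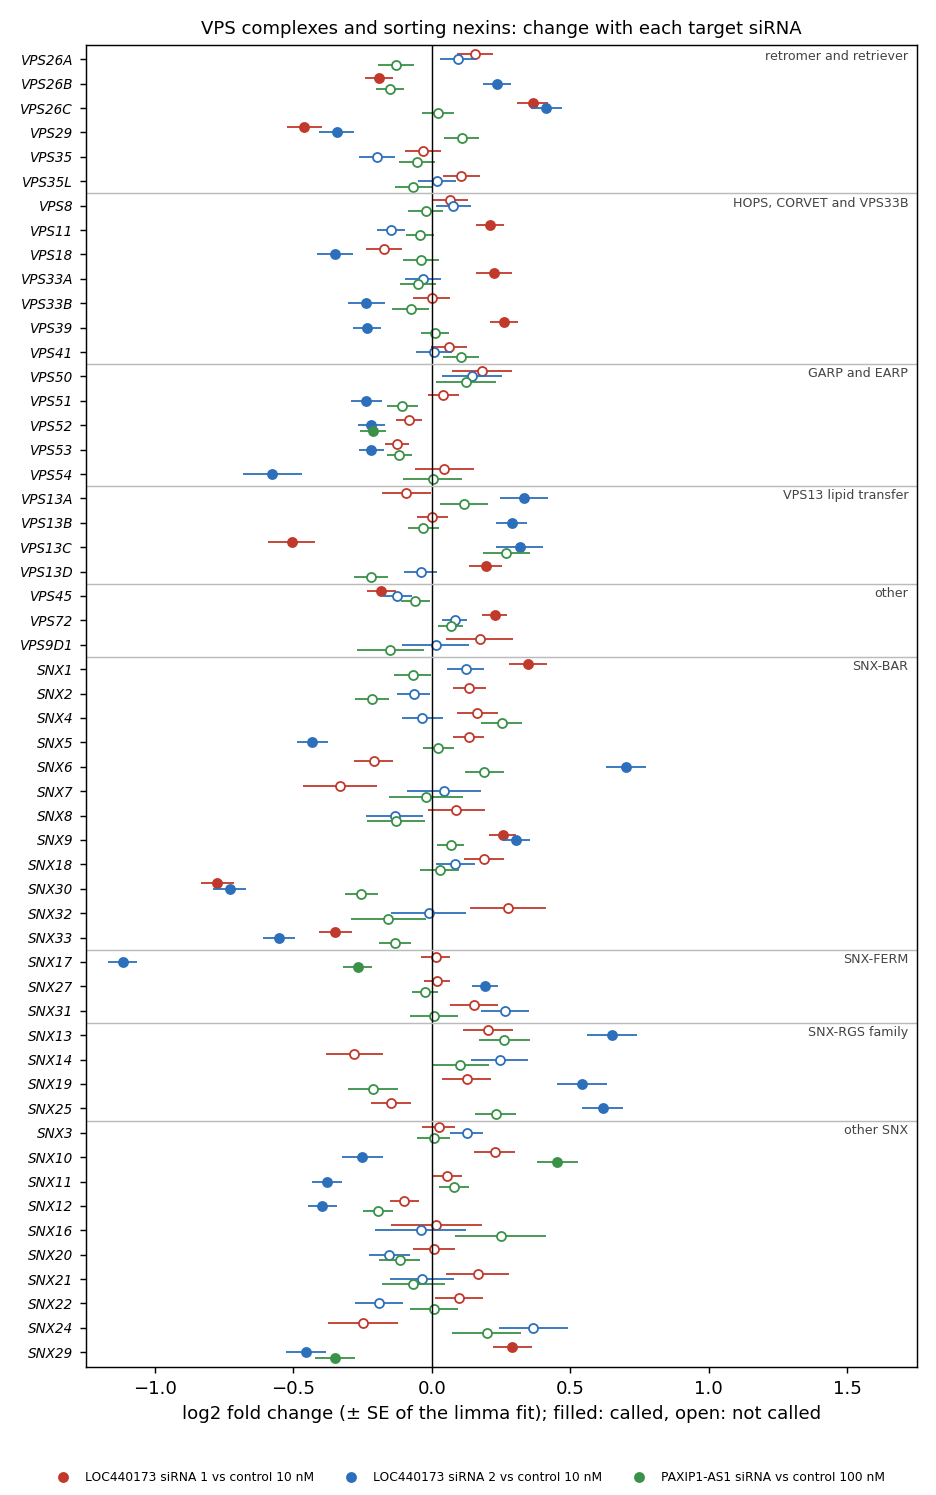
Log2 fold change (x axis) of each other VPS gene and sorting nexin in a role list (y axis), with LOC440173 siRNA 1 (red), siRNA 2 (blue) and the PAXIP1-AS1 siRNA (green) against the control at the same dose, with SE bars of the limma fit and filled points for called genes. SNX17 has the lowest point (-1.12, siRNA 2), SNX30 has red and blue points together at -0.77 and -0.73, and the 3 filled points of the SNX-RGS family are all blue and right of 0.

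Set directly against each other, the LOC440173 siRNAs differed in 40 of the 78 genes, 13 higher and 27 lower with siRNA 2, or 51.3% against a background of 37.1% of all genes (18.2% higher and 19.0% lower). With genes below the median level left out these shares were 66.7% of 66 members and 67.5% of genes. The median difference was -0.10 for the members and -0.05 for all genes. Of the 40 calls 28 held without each array in turn, among them those of VPS4B, VPS25, VPS36, SNX17, SNX6, SNX5, SNX25, CHMP1B, CHMP4C and VPS13C. With a 1.5-fold minimum 5 were called, or 6.41% beside 3.78% of all genes: VPS25, VPS36, SNX17, SNX6 and VPS4B. Across the 3 target siRNAs 49 of the members were called at least once and 29 never. The same count over all genes was not made, so these numbers have no background beside them.

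Outside the members, 77 genes that work with these complexes were listed as partners (accessory ESCRT factors, endosomal Rab effectors, SNAREs, lipid kinases and sorted receptors), and 69 of them were measured singly. With siRNA 1, 13 rose and 12 fell, or 36.2%, and with siRNA 2, 11 rose and 21 fell, or 46.4%, against the backgrounds of 28.8% and 30.0% given above. The 4 largest rises with siRNA 1 were VIPAS39, a partner of VPS33B (0.61, adjusted p = 0.000299, limma), STAMBP, a deubiquitinase on ESCRT-0 (0.43), TOM1, a ubiquitin adaptor (0.38), and UBAP1, an ESCRT-I subunit (0.33). The 4 largest falls were EGFR, the receptor whose degradation depends on ESCRT (by 0.82, adjusted p = 0.00192), HOOK1 (by 0.79), the recycling SNARE STX12 (by 0.71) and RAB4A (by 0.61). With siRNA 2 the transferrin receptor TFRC rose by 0.71 (adjusted p = 0.000238), CEP55, which recruits ESCRT to the midbody, by 0.49, UEVLD, a relative of TSG101, by 0.48, and the tether EEA1 by 0.42 (adjusted p = 0.0242). IGF2R, a receptor that retromer and the SNX-BAR nexins return to the Golgi, fell by 0.73 (adjusted p = 3.04e-05), EHD3 by 0.59, the SNARE VAMP8 by 0.54 and the lipid kinase PIKFYVE by 0.45. EEA1 was lost without control 10 nM replicate 1 (adjusted p = 0.12) or siRNA 2 replicate 2 (0.131). With the PAXIP1-AS1 siRNA 5 of the 69 rose and 4 fell, or 13.0% against 4.62%, and between the control doses 0 were called.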

How the data were processed

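Expression was measured on 10 Affymetrix arrays of HEK-293 cells in 5 siRNA groups taken from the labels. The deposited values are log2 expression for 32321 probe sets. Per the submitters' processing notes RMA and limma were used, with no versions. Neither the array definition file nor the build is given in the labels. No scanner intensities were used, and how far a probe set lies above background is not known. Precision is limited by the number of arrays.

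The platform annotation gave 19158 probe sets a single symbol, 1388 several, and listed no gene for 11775. The brightest probe set stood for each of the 637 genes with several. All 78 symbols were current in RefSeq. All 10 arrays entered 1 limma fit (version 3.58.1, R 4.3.3) with a mean per group, eBayes, two-sided contrasts and Benjamini-Hochberg adjustment over 18404 genes at 0.05. The smallest p of an exact permutation test of 2 arrays against 2 is 0.333, so every call rests on a spread pooled over groups (5 residual degrees of freedom, 2.87 from the prior). The code was tested on simulated data. Named genes were, per comparison, up to 10 called rises and 10 called falls without overlap, VPS4A and VPS4B, members of role lists where the role is described, and 4 partners each way. The members, gene lists and rules were chosen with earlier results of these data known.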

Additional observations from a re-analysis of the deposited data

How the results depend on the processing

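No member called above in a comparison was called there with the opposite sign under any alternative. Members called only under an alternative were not checked for this. The 4 target comparisons called 24 (siRNA 1), 38 (siRNA 2), 40 (siRNA 2 against siRNA 1) and 8 members (PAXIP1-AS1). With a 1.5-fold minimum these became 0, 1, 5 and 0, beside 1.35%, 1.87%, 3.78% and 0.0652% of all genes. When the fit held the compared groups alone they were 15, 19, 37 and 1, or 19.2%, 24.4%, 47.4% and 1.28% of members beside 19%, 15.1%, 33% and 0.983% of all genes, so the siRNA 1 share was at the background. For PAXIP1-AS1 the count was 13 under another quantile normalization (5.96% of all genes called), 5 with each array shifted to the same median (4.28%), 21 of the 66 members tested with genes below the median level left out (20.4%), 20 with a robust prior that follows intensity (9.69%), and 14 with array weights (8.39%). Leaving out each array in turn also moved these counts, and it left 1 array in that group. Without any of its own 4 arrays the PAXIP1-AS1 calls became fewer, both among the members and among all genes. The split of higher and lower calls moved with the scaling: siRNA 1 gave 24 and 7 under quantile normalization and 23 and 6 under the median shift beside 16 and 8, siRNA 2 gave 21 and 14 under the median shift beside 16 and 22, and PAXIP1-AS1 gave 3 and 2 beside 3 and 5. The median shift moved the median of all genes from 0.05 to 0.12 with siRNA 1 and from 0.01 to 0.10 with siRNA 2. Small uncalled differences changed sign: VPS4B with siRNA 2 (0.049 under quantile normalization, 0.055 under the median shift, -0.12 to 0.050 without single arrays), VPS4A between the siRNAs (-0.0086 to 0.10 without single arrays), LINC02893 with PAXIP1-AS1 (0.020 under the median shift, -0.060 to 0.040 without single arrays), and between the control doses, without single arrays, VPS4A (-0.012 to 0.040), VPS4B (-0.11 to 0.066) and LINC02893 (-0.057 to 0.071). The cause was not tested. The replicate numbers of the labels were not taken as pairs: same-numbered arrays deviated together with correlations of 0.29 to 0.53 among the 4 groups other than siRNA 1 but 0.068 to 0.090 with siRNA 1. With the replicate number as a block the counts were 29, 43, 47 and 13, beside 36.6%, 34.4%, 42.3% and 7.2% of all genes. The block kept all 24, 38, 40 and 8 earlier calls and added that of SNX14 with siRNA 1 (adjusted p = 0.0254, limma) among others. The control doses gave 0 calls under every alternative.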

Other observations

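Of the 78 genes 3 had a second probe set, and the agreement between probe sets varied. For VPS53 the second probe set gave -0.09, -0.23 and 0.00 with LOC440173 siRNA 1, siRNA 2 and the PAXIP1-AS1 siRNA, beside -0.13, -0.22 and -0.12 for the brighter one. For VPS52 it gave -0.23, -0.62 and -0.12, beside -0.08, -0.22 and -0.21. For SNX29 it gave 0.28, 0.05 and -0.20, beside 0.29, -0.45 and -0.35, so the siRNA 2 fall was read by a single probe set. These differences between probe sets were not tested.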
